A study of Homo sapiens with 8 samples.

Results

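Transcript levels of 10 genes of the tumour necrosis factor (TNF) superfamily were examined in U2OS cells, a human osteosarcoma line, after knockdown (KD) of WSB2 and after TNF-α stimulation. The genes were 4 ligands (TNF, LTB, TNFSF9 and TNFSF10) and 6 receptors (TNFRSF9, CD40, LTBR, TNFRSF12A, TNFRSF21 and TNFRSF11B). They were chosen as a list of symbols and were matched by Ensembl identifier to 10 of the 58735 genes of the deposited tables. A total of 8 bulk RNA-seq libraries fell into 4 groups of 2. Cells with a control shRNA (shControl, here control cells) and cells with a WSB2 shRNA (shWSB2, here KD cells) were kept under normal conditions (here unstimulated) or given TNF-α for 5 h (here stimulated). Both lines were made by lentiviral transduction and puromycin selection, so the control cells carried a vector and a selection history as well. Which WSB2 hairpin and which TNF-α concentration were used for these libraries is not given in the sources used here. Nothing in the labels says that the 2 libraries of a group came from separate cultures, and the p-values below then measure only the spread between libraries, which may be technical.

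TNF superfamily ligands are mostly trimeric membrane or secreted proteins that cluster their receptors, and the receptors pass the signal on through TRAF adaptors or death domain proteins. Several members are themselves targets of NF-κB, the transcription factor family that TNF-α activates, so that a cell stimulated with TNF-α can begin to make ligands and receptors of its own. WSB2 is the substrate-binding subunit of a ubiquitin ligase, and the study asked how it affects genes switched on by the NF-κB subunit RelA.

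The NF-κB binding element (the κB consensus, 10 bases) was searched on both strands, with overlapping matches merged, in the window from 250 bases before to 50 bases after the gene starts given by RefSeq (GRCh38.p14). Windows were at hand for 7 of the 10 genes, namely TNF, LTB, TNFSF9, TNFSF10, TNFRSF9, TNFRSF21 and LTBR. A match was found in 2 of them, LTB and TNFRSF9, against 13.3% of 27305 genes with a window. The LTB window held 2 separate matches, where 1.21% of genes had 2 or more. Only matches wholly before the gene start are shown, so the other match of LTB is left out. They are shown because both genes rose steeply with TNF-α below, with 10 flanking bases or fewer on each side and the matched bases in capitals.
LTB: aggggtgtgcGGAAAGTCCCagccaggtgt
TNFRSF9: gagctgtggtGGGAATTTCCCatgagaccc
The LTB stretch lies at chr6:31582492-31582521 on the minus strand, with the match 86 to 77 bases before the RefSeq start. In GENCODE release 29 it overlaps in part exon 1 of a non-coding processed LTB transcript that begins further upstream. The TNFRSF9 stretch lies at chr1:7940894-7940923 on the minus strand, with the match 74 to 64 bases before the RefSeq start, and its 11 capitals are 2 overlapping matches, 1 on each strand. It falls in the untranslated exon 2 of 1 longer GENCODE transcript. The TNF window, in contrast, held no match of these letters. A match is a description of the sequence and no evidence of binding, and the absence of one says only that these letters are not in the window.

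Each library held between 15601098 and 18677023 reads assigned to genes. Levels are given as FPKM, fragments scaled to the exon length of the gene and to library size. That length need not be the length of the transcript expressed, so levels of different genes compare only approximately. Fold changes are differences of log2(FPKM + 1), which understate the change of genes near 0, and a gene was called where limma's test with Benjamini-Hochberg adjustment over 16528 genes gave an adjusted p under 0.05. WSB2 itself stood at 27.7 and 28.0 FPKM in unstimulated control cells and at 8.38 and 8.52 in unstimulated KD cells. With TNF-α it stood at 24.995 and 25.27 FPKM in control cells and at 9.002 and 9.183 in KD cells, so the KD libraries matched their label. The 2 unstimulated KD libraries stood apart from the other 6. They had 4.10% and 4.42% mitochondrial reads against 1.11% to 2.03%, a read-weighted GC content of 49.4% and 49.9% against 52.5% to 53.2%, and reads on 26225 and 26397 genes against 22072 to 22957. The fold changes of all genes in the unstimulated KD comparison followed the genes' GC content (Spearman's rho = -0.68 across 16520 genes, which are not independent replicates), whereas those of TNF-α in control cells hardly did (rho = 0.07). The values of the 10 genes that rest on these libraries, and the counts of the other gene lists, are therefore given below also with GC content and gene length corrected for. Without them, the comparisons of unstimulated KD cells have no value. As for the cell type, the 6 mesenchymal and osteosarcoma markers were divided. COL1A1, SPARC and VIM had group means between 148.1 and 283.2 FPKM and RUNX2 between 1.32 and 2.91, but COL1A2 stood at 0.0340 to 0.0864 and TWIST1 was at 0 in every library. Of 5 epithelial markers, KRT8 (134.1 to 321.4 FPKM) and KRT18 (74.5 to 196.2) were also high, and EPCAM, CDH1 and KRT5 remained below 0.5 FPKM. In unstimulated KD cells KRT8 and KRT18 lay below COL1A1, SPARC and VIM, and in unstimulated control cells KRT18 did. None of 3 endothelial markers had a mean of at least 1 FPKM in any group. The leukocyte markers, 8 genes of which 3 were at 0 in all libraries, summed to between 0.0851 and 0.534 FPKM per library, between 0.106 and 0.375 in unstimulated and 0.356 and 0.427 in stimulated control cells. Only ITGAM was expressed enough to be tested. With TNF-α its log2 fold change was 0.36 in control cells (adjusted p = 0.0362, limma) and 0.41 in KD cells (adjusted p = 0.00154, limma). Corrected for GC content and length, ITGAM was called in neither line. The part of these markers in the results below was not tested.

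**Figure D1:**
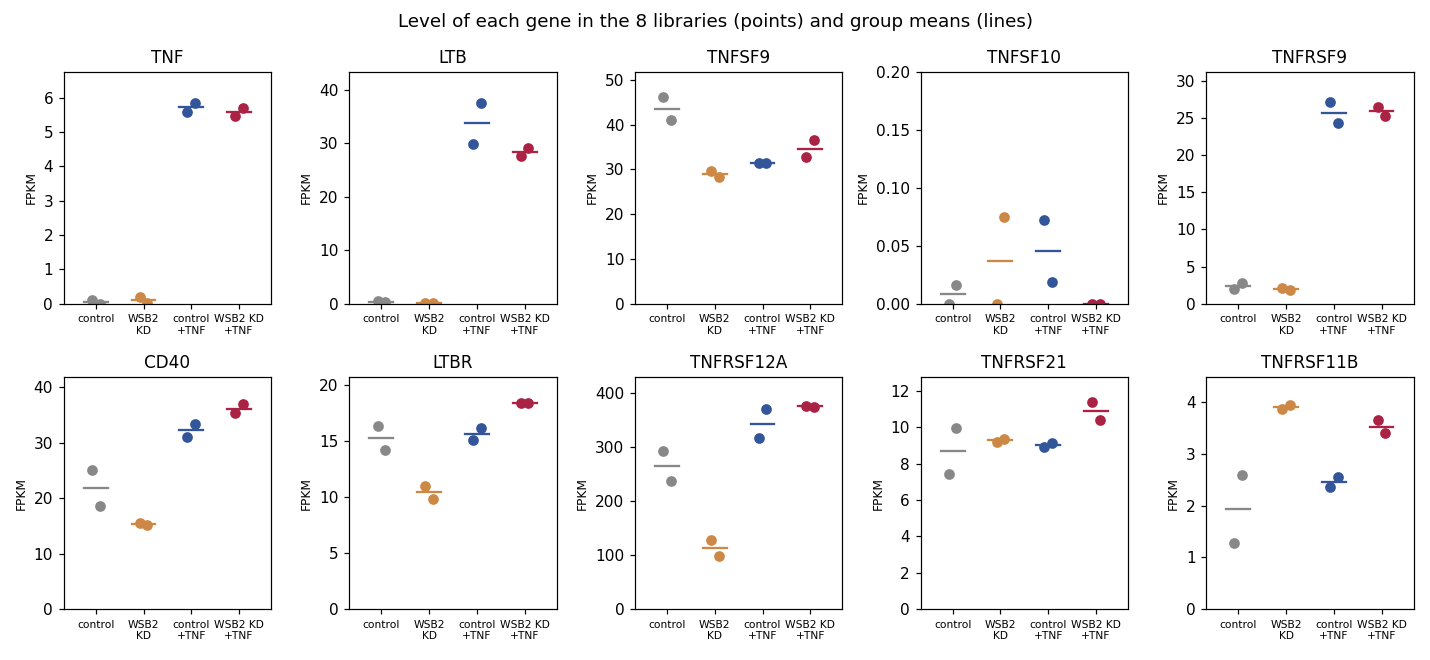
FPKM (y axis, linear, from 0, one scale per gene) of the 10 genes in each of the 8 libraries (points), with the mean of each group (lines) and the 4 groups along the x axis. TNF, LTB and TNFRSF9 were near the base line without TNF-α and high with it in both lines, while TNFRSF12A, LTBR and CD40 had their lowest 2 points in unstimulated KD cells.

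TNF-α raised 3 of the 10 genes steeply in both lines, the ligands TNF and LTB and the receptor TNFRSF9. In control cells 4 of the 9 genes tested were called, 3 higher and 1 lower, where 4.24% of all genes were called (3.1% higher and 1.14% lower). In KD cells 7 of 9 were called, all higher, but there 62.5% of all genes were called (31.1% higher and 31.4% lower). With GC content and length corrected for, 7 of 9 were called in KD cells, 6 higher and 1 (TNFSF9) lower, where 56.9% of all genes were called (29.1% higher and 27.8% lower). The comparisons of TNF-α and of WSB2 share their libraries, and their values are therefore set side by side only.

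TNF (ENSG00000232810, chr6:31575567-31578336), which encodes the cytokine that was added to the cells, was almost silent before stimulation. It stood at 0.119 and 0 FPKM in unstimulated control cells, at 0.211 and 0.0309 in unstimulated KD cells, at 5.59 and 5.84 in stimulated control cells, and at 5.46 and 5.70 in stimulated KD cells. Every stimulated library lay above every unstimulated one, and within each condition the 2 lines overlapped. In reads, the 2 control libraries together rose from 3 to 300, a ratio of 103 (95% counting interval 34.9 to 503) after scaling to library size, and the 2 KD libraries from 8 to 309, a ratio of 45.7 (22.9 to 107). These intervals cover counting error only. The library size is that behind the deposited FPKM, 1.21 times the assigned reads in both unstimulated KD libraries and 0.925 to 1.03 times in the others. The ratios of KD cells depend on that scaling. The fitted log2 fold change was 2.67 ± 0.12 (SE, n = 2 libraries a group, adjusted p = 2.65e-05, limma) in control cells and 2.56 ± 0.12 in KD cells (adjusted p = 1.34e-05, limma). With a pseudocount of 0.1 these became 5.29 and 4.81, and with voom on the recovered reads 6.91 and 5.76. The corrected value in KD cells was 2.15. In bulk libraries, fewer cells that express a gene and less RNA per cell cannot be told apart.

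LTB (ENSG00000227507, chr6:31580525-31582522) encodes lymphotoxin β, a membrane ligand that binds LTBR in complex with lymphotoxin α, and lies 2.188 kb from TNF in the same gene cluster. Its levels were 0.478 and 0.263 FPKM in unstimulated control cells, 0.197 and 0.101 in unstimulated KD cells, 29.9 and 37.5 in stimulated control cells, and 27.56 and 29.02 in stimulated KD cells. It thus changed from one of the lowest of the 10 genes to one of the highest, in both lines. Summed reads rose from 18 to 1619 in control cells, a ratio of 92.7 (58.5 to 157), and from 9 to 1435 in KD cells, a ratio of 189 (99.0 to 413). The log2 fold changes were 4.66 ± 0.13 (adjusted p = 2.59e-06, limma) and 4.67 ± 0.13 (adjusted p = 1.97e-06, limma), and with voom on the recovered reads 6.50 and 7.47. The corrected value in KD cells was 4.02. LTA, the partner ligand, lies 1.242 kb on the other side of TNF and remained between 0 and 0.373 FPKM in all 8 libraries, too low to be tested.

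TNFSF9 (ENSG00000125657, chr19:6530999-6535928), which encodes the ligand of TNFRSF9 (4-1BB ligand), was already the second highest of the 10 genes before stimulation, at 46.2 and 41.0 FPKM in control cells, and stood at 29.7 and 28.3 in unstimulated KD cells, 31.5 and 31.4 in stimulated control cells and 32.7 and 36.5 in stimulated KD cells. The 2 unstimulated control libraries were above the other 6. In control cells TNF-α lowered it by a log2 fold change of -0.46 ± 0.09 (adjusted p = 0.0331, limma), a call that was lost in 11 of 19 alternative analyses (adjusted p up to 0.197). In KD cells it was called higher by 0.25 ± 0.09 (adjusted p = 0.0412, limma), yet the direction turned to -0.26 (adjusted p = 0.0137, limma) once GC content and length were corrected for and to -0.12 (adjusted p = 0.219, limma) with libraries scaled to total reads.

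TNFSF10 (ENSG00000121858, chr3:172505508-172523507) encodes TRAIL, a ligand that triggers apoptosis through death receptors. Only 11 reads fell on it in all 8 libraries, at most 5 in one library, and its level ranged from 0 to 0.0746 FPKM. No change could be detected at this depth, where 3 reads correspond to between 0.0436 and 0.0576 FPKM, and the gene was not tested.

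TNFRSF9 (ENSG00000049249, chr1:7915894-7943165) encodes 4-1BB (CD137), a costimulatory receptor best known from activated T cells. In these cells it stood at 1.97 and 2.76 FPKM in unstimulated control libraries, 2.13 and 1.86 in unstimulated KD libraries, 27.1 and 24.3 in stimulated control libraries, and 26.5 and 25.2 in stimulated KD libraries. The 2 lines overlapped under both conditions. The ratio of the mean levels was 10.87 in control and 12.99 in KD cells, with log2 fold changes of 2.996 ± 0.127 (adjusted p = 2.18e-05, limma) and 3.17 ± 0.13 (adjusted p = 7.67e-06, limma). The corrected value in KD cells was 3.45. TNF, LTB and TNFRSF9 were called with TNF-α in all 19 alternative analyses of control cells and in all 18 of KD cells. They were also the 3 members with the largest change in each line.

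The other receptors were expressed before stimulation and moved less. CD40 (ENSG00000101017, chr20:46118272-46129863), a receptor for signals from helper T cells, stood at 25.2 and 18.6 FPKM in unstimulated control cells, 15.5 and 15.2 in unstimulated KD cells, 31.1 and 33.4 in stimulated control cells, and 35.3 and 37.0 in stimulated KD cells. The 4 stimulated libraries were all above the 4 unstimulated ones. The log2 fold change with TNF-α was 0.55 ± 0.13 in control cells, which missed the threshold (adjusted p = 0.0590, limma) and passed it in 5 of 19 alternatives, and CD40 rose by 1.18 ± 0.13 in KD cells (adjusted p = 0.000185, limma), or by 0.94 with the correction.

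TNFRSF12A (ENSG00000006327, chr16:3018445-3022383) encodes Fn14, the receptor for the ligand TWEAK (TNFSF12), and was the highest of the 10 genes in every group. It stood at 293.6 and 237.4 FPKM in unstimulated control cells, 128.4 and 98.6 in unstimulated KD cells, 317.1 and 370.6 in stimulated control cells, and 377.3 and 375.5 in stimulated KD cells. The unstimulated KD libraries were far below the other 6. With TNF-α its log2 fold change was 0.38 ± 0.16 in control cells, not called (adjusted p = 0.285, limma), and it rose by 1.73 ± 0.16 in KD cells (adjusted p = 0.000106, limma). That rise was 1.05 with the correction and 1.35 when scaled to total reads, called in both. The gene overlaps CLDN6 on the opposite strand, which had 107 reads in all against 66854 for TNFRSF12A.

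LTBR (ENSG00000111321, chr12:6375045-6391571), the receptor for the lymphotoxin ligands and an activator of the noncanonical NF-κB pathway, stood at 16.4 and 14.2 FPKM in unstimulated control cells, 11.04 and 9.866 in unstimulated KD cells, 15.1 and 16.2 in stimulated control cells, and 18.4 and 18.4 in stimulated KD cells. Control libraries overlapped with and without TNF-α, with a log2 fold change of 0.03 (95% interval -0.19 to 0.25) whose sign turned with the scaling (-0.04 when scaled to total reads, -0.03 with upper-quartile factors). In KD cells LTBR rose by 0.76 ± 0.09 (adjusted p = 0.000315, limma), or by 0.41 with the correction. In control cells LTB rose while its receptor was not called.

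TNFRSF21 (ENSG00000146072, chr6:47231532-47309905), also called death receptor 6, stood between 7.44 and 11.4 FPKM in the 8 libraries and was called in none of the 5 contrasts. TNFRSF11B (ENSG00000164761, chr8:118923557-118952200) encodes osteoprotegerin, a secreted decoy receptor that binds RANKL and TRAIL and restrains bone resorption. It stood at 1.27 and 2.60 FPKM in unstimulated control cells, 3.87 and 3.94 in unstimulated KD cells, 2.36 and 2.55 in stimulated control cells, and 3.64 and 3.40 in stimulated KD cells. The 4 KD libraries were all above the 4 control libraries, and it was called with TNF-α in neither line (log2 fold change 0.27, 95% interval -0.18 to 0.72, in control cells and -0.12, -0.57 to 0.34, in KD cells), where the interval of control cells does not exclude an appreciable rise.

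**Figure D2:**
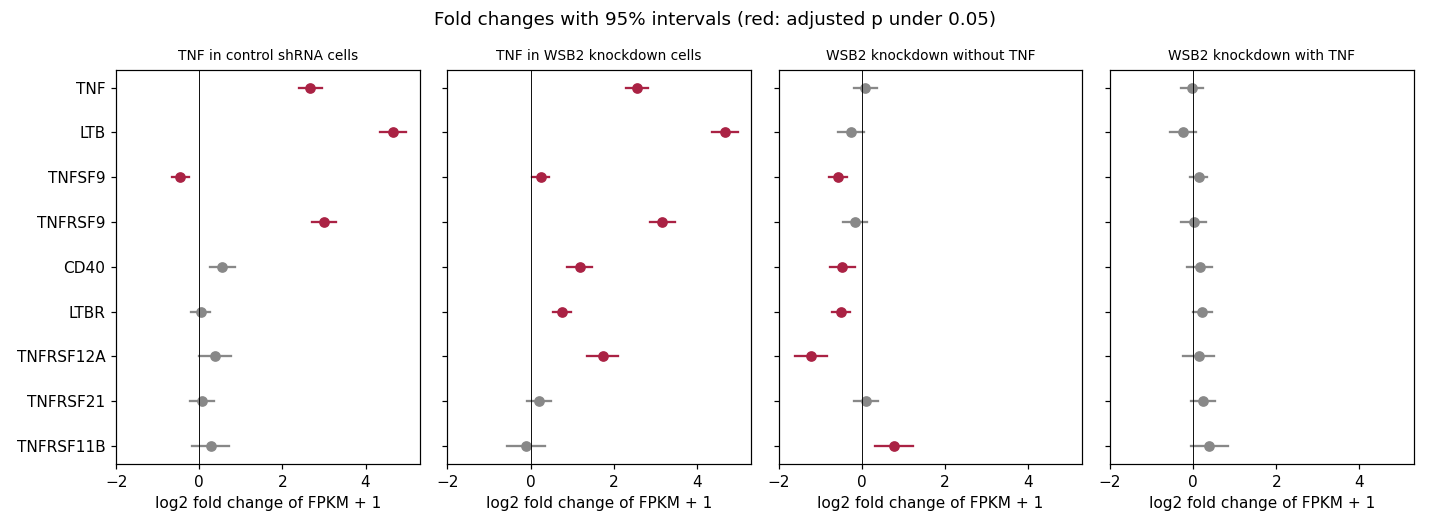
log2 fold change of FPKM + 1 (x axis) with 95% intervals for the 9 genes tested (y axis) in 4 comparisons, with calls at an adjusted p under 0.05 in red. LTB, TNFRSF9 and TNF lie far to the right in both TNF-α panels, TNFRSF12A lies at -1.22 in the unstimulated KD panel, and no gene is red in the stimulated KD panel.

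The effect of WSB2 KD under TNF-α addresses the question of the study most directly. The study's claim, however, concerns a subset of NF-κB target genes. It names TNFRSF9 as a target whose TNF-α-induced transcription WSB2 KD did not significantly change, measured by RT-PCR. None of the 9 genes was called by limma (0 higher and 0 lower), where 0.115% of all genes were called (0.0605% higher and 0.0545% lower). Voom on the recovered reads also called 0, and at an unadjusted p under 0.05 there was 1 gene, LTBR, against 8.16% of all genes. For the 3 genes that TNF-α induced steeply, the log2 difference of stimulated KD from stimulated control cells was 0.01 for TNFRSF9 (95% interval -0.28 to 0.31), -0.03 for TNF (-0.30 to 0.24) and -0.24 for LTB (-0.55 to 0.08). The sign of the TNFRSF9 value turned to -0.0078 when scaled to total reads and to -0.013 with upper-quartile factors. For LTBR the difference was 0.22 (0.0029 to 0.44, adjusted p = 0.605, limma), for TNFRSF12A 0.13 (-0.24 to 0.51), for CD40 0.16 (-0.14 to 0.46), for TNFSF9 0.13 (-0.08 to 0.34), for TNFRSF21 0.25 (-0.04 to 0.54) and for TNFRSF11B 0.39 (-0.06 to 0.84). In 6 of the 9 genes both KD libraries were above both control libraries, in 1 (LTB) both were below, and in TNF and TNFRSF9 they overlapped. Of all genes, 46.2% had no overlap in this comparison (23.9% higher and 22.3% lower). The intervals, not the missed threshold, give what these libraries allow, and they include differences of up to 0.84 on the log2 scale.

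Without TNF-α, 5 of the 9 genes were called in KD against control cells, 1 higher and 4 lower, where 60.1% of all genes were called (29.8% higher and 30.2% lower). TNFRSF12A fell by 1.22 ± 0.16 on the log2 scale (adjusted p = 0.000517, limma), TNFSF9 by 0.57 ± 0.09 (adjusted p = 0.00103, limma), LTBR by 0.51 ± 0.09 (adjusted p = 0.00247, limma) and CD40 by 0.47 ± 0.13 (adjusted p = 0.0143, limma). TNFRSF11B rose by 0.78 ± 0.19 (adjusted p = 0.00964, limma). These 5 are genes that U2OS cells express without stimulation. Markers of the cell type fell in the same comparison. The epithelial list summed to 201.6 and 217.5 FPKM in unstimulated KD cells against 426.4 and 549.8 in control cells, through KRT8 (-1.25) and KRT18 (-1.13), and its other 3 genes were not called. The mesenchymal list summed to between 536.7 and 549.7 FPKM against 706.2 to 772.2, with COL1A1 (-0.47), VIM (-0.51) and SPARC (-0.38) lower and RUNX2 (0.46) higher. These marker values and calls are uncorrected. With GC content and length corrected for, the mesenchymal list gave 0 higher and 3 lower of 5 tested. The epithelial list then gave 1 higher and 2 lower of 5. Of all genes, 52.3% were called with the correction (24.0% higher and 28.2% lower). The part of these markers in the values of the 5 genes was not tested. Among the 9, TNFRSF12A had the highest GC content (64.2%) and TNFRSF11B the lowest (42.5%).

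With GC content and length corrected for, 5 of 9 were called again, where 52.3% of all genes were called (24.0% higher and 28.2% lower), but only TNFRSF12A and LTBR were among both sets of calls. TNFRSF12A remained lower in KD cells at -0.57 (adjusted p = 0.00199, limma), less than the uncorrected -1.22, and LTBR at -0.24 (adjusted p = 0.0442, limma). TNFSF9 moved to -0.07 (adjusted p = 0.442, limma), CD40 to -0.23 (adjusted p = 0.0985, limma) and TNFRSF11B to 0.53 (adjusted p = 0.0537, limma), none of them called. TNFRSF9 was called lower at -0.47 (adjusted p = 0.00770, limma). LTB (0.39) and TNF (0.48) were called higher, although both stood below 0.5 FPKM in all 4 unstimulated libraries, and LTB was called in the opposite direction (-0.91, adjusted p = 0.0187, limma) with a pseudocount of 0.1. The correction adds an amount set by GC content and length to the log2 value whatever the level is, and so shifts genes near 0 by its construction. The part of the altered composition of the 2 libraries in the falls of the 4 genes was not tested beyond this correction.

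**Figure D3:**
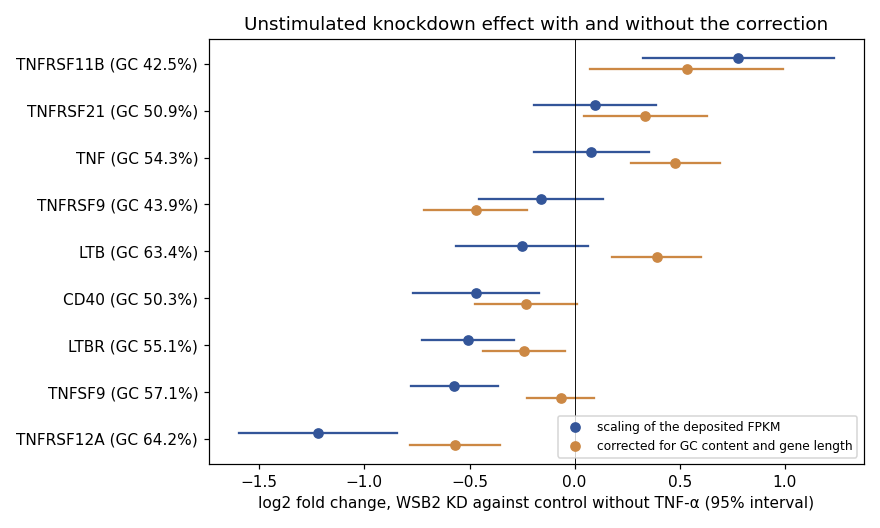
log2 fold change of unstimulated KD against control cells (x axis) with 95% intervals for the 9 genes (y axis, with their GC content), as deposited (blue) and with both GC content and gene length corrected for (orange). The TNFRSF12A value moved from -1.22 to -0.57 and that of TNFSF9 from -0.57 to -0.07.

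Whether WSB2 KD acted differently in stimulated and unstimulated cells was tested as an interaction, the stimulated minus the unstimulated KD effect. It was called for 4 of the 9 genes, all positive, where 46.1% of all genes were called (23.8% higher and 22.3% lower). The values were 1.36 ± 0.23 for TNFRSF12A (adjusted p = 0.00329, limma), 0.73 ± 0.13 for LTBR (adjusted p = 0.00435, limma), 0.70 ± 0.13 for TNFSF9 (adjusted p = 0.00398, limma) and 0.63 ± 0.18 for CD40 (adjusted p = 0.0244, limma). The CD40 call held in 9 of 17 alternatives, with adjusted p up to 0.102 (limma), while those of TNFRSF12A and LTBR held in all 17 and that of TNFSF9 in 16. These 4 genes were also the 4 that were lower in unstimulated KD cells, and both results rest on the same unstimulated libraries. With GC content and length corrected for, 5 of the 9 genes were called where 35.6% of all genes were (19.9% higher and 15.7% lower). The interaction was then 0.71 for TNFRSF12A and 0.46 for LTBR, both called, and 0.21 for TNFSF9 and 0.38 for CD40, neither called. For the steeply induced genes it was 0.01 for LTB (95% interval -0.43 to 0.46), 0.17 for TNFRSF9 (-0.25 to 0.59) and -0.11 for TNF (-0.49 to 0.28), none called, while with the correction TNFRSF9 was called at 0.48, and LTB at -0.62 and TNF at -0.50 were called with their unstimulated levels near 0.

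The order of the 10 levels, which compare only approximately between genes, differed between conditions. In unstimulated control cells it ran from TNFRSF12A (265.5 FPKM, mean) through TNFSF9 (43.6), CD40 (21.9), LTBR (15.3), TNFRSF21 (8.69), TNFRSF9 (2.36), TNFRSF11B (1.93), LTB (0.371) and TNF (0.0597) to TNFSF10 (0.00832). The ranges of TNFRSF9 and TNFRSF11B overlapped, as did those of TNF and TNFSF10, and the other neighbours did not. In stimulated control cells TNFRSF12A (343.9 FPKM) came first, and LTB (33.7), CD40 (32.3) and TNFSF9 (31.5) followed. The ranges of LTB and CD40 overlapped, and so did those of CD40 and TNFSF9. TNFRSF9 (25.7) came next, above LTBR (15.6), TNFRSF21 (9.02), TNF (5.71), TNFRSF11B (2.45) and TNFSF10 (0.0455). A total of 7 of the 10 genes had a mean of at least 1 FPKM in unstimulated cells of each line, and 9 in stimulated cells.

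The rest of the superfamily was examined for TNF-α in control cells from lists of symbols. In that comparison limma called 4.24% of all genes (3.1% higher and 1.14% lower), and 17.5% had an unadjusted p under 0.05. Of 14 other ligands, 7 were expressed enough to be tested and 0 were called by limma or voom, with 2 at an unadjusted p under 0.05 (limma, median log2 fold change 0.02, against 0.01 for all genes). Of 23 other receptors, 12 were tested (median -0.01). Limma called 1 of them and voom 2, and 4 had an unadjusted p under 0.05 (limma). The receptor that limma called was TNFRSF10B, a death receptor for TRAIL. It rose by 1.14 ± 0.08 in control cells (adjusted p = 0.000215, limma) and by 1.54 ± 0.08 in KD cells (adjusted p = 1.95e-05, limma). TNFRSF10B thus rose while its ligand gene TNFSF10 had almost no reads. No test of a difference between these lists and the 10 genes was made.

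The genes that carry the receptor signal were examined likewise. All 17 TRAF adaptors, death domain proteins and members of the noncanonical NF-κB pathway on a list were tested, and TNF-α raised 9 of them in control cells and lowered 0 (median 0.56), where 3.1% of all genes were higher and 1.14% lower. TRAF1, an adaptor that binds TNFRSF9 and CD40 among others, rose by 4.43 ± 0.09 (adjusted p = 2.75e-07, limma), BIRC3, a ubiquitin ligase of the TNF receptor complex, by 2.78 ± 0.11 (adjusted p = 1.24e-05, limma), and RELB, the NF-κB subunit downstream of LTBR and CD40, by 2.61 ± 0.11 (adjusted p = 1.71e-05, limma). TRAF1 went from 0.983 and 1.17 FPKM to 43.4 and 43.9 in control cells, and from 0.837 and 0.940 to 61.8 and 65.0 in KD cells. In KD cells 11 of the 17 rose with TNF-α and 4 fell (median 1.14), where 62.5% of all genes were called. With the correction 11 rose and 2 fell (median 0.64), where 56.9% of all genes were called (29.1% higher and 27.8% lower). Uncorrected, the largest values were those of TRAF1 (5.09), RELB (3.81) and NFKB2 (2.98), which encodes the precursor of the partner of RELB.

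**Figure D4:**
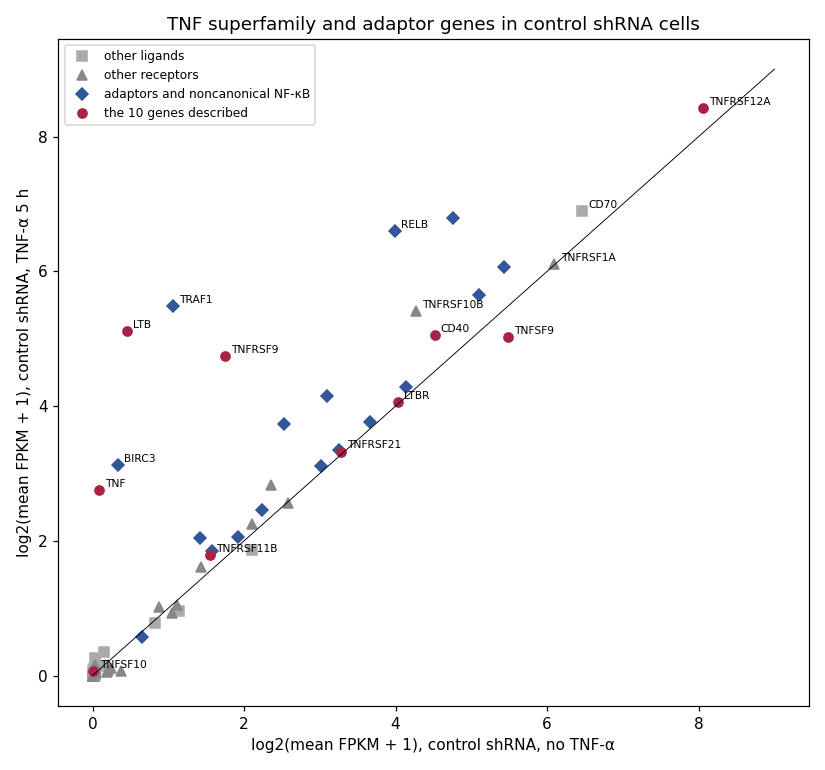
log2(mean FPKM + 1) in control cells with TNF-α (y axis) against the same without it (x axis) for the 10 genes (red circles), the other ligands (squares) and receptors (triangles) and the 17 adaptor and noncanonical pathway genes (blue diamonds), with the line of equal level. TNF, LTB, TNFRSF9, TRAF1 and BIRC3 stand far above the line, and most other ligands and receptors lie on or near it.

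In KD cells, TNF-α raised 3 of the 7 other ligands and lowered 0 (median 0.18), and raised 5 of the 12 other receptors and lowered 2 (median 0.09), where 62.5% of all genes were called (31.1% higher and 31.4% lower). With the correction the ligands again gave 3 higher and 0 lower (median 0.22), and the receptors gave 4 higher and 4 lower (median -0.10). Of all genes, 56.9% were then called (29.1% higher and 27.8% lower). The values of single genes that follow are uncorrected. CD70, the ligand of CD27, whose gene lies 47.254 kb from TNFSF9, rose by 1.27 ± 0.15 and TNFSF12, the TWEAK ligand of TNFRSF12A, by 0.78 ± 0.12. TNFRSF1A, the main receptor of TNF-α, whose gene lies 32.93 kb from LTBR, rose by 0.90 ± 0.09. In unstimulated KD cells CD70 (-0.76), TNFSF12 (-0.75), TNFSF13 (-0.37) and TNFRSF1A (-0.71) were lower than in control cells, and FAS (0.89) and EDA2R (0.63) were higher, with 3 of 7 other ligands lower (median -0.10), and 2 of 12 other receptors higher and 3 lower (median -0.06), where 60.1% of all genes were called (29.8% higher and 30.2% lower). With the correction 2 ligands were lower (median -0.14), and the receptors gave 6 higher and 2 lower (median 0.34). The correction left 52.3% of all genes called there (24.0% higher and 28.2% lower). Among the 17 adaptors 6 were higher and 7 lower, or 4 and 6 with the correction, with uncorrected values of 1.73 for BIRC2, -1.16 for RELB and 1.04 for CHUK. In stimulated KD against stimulated control cells, limma called 0 of the 7 ligands, 0 of the 12 receptors and 0 of the 17 adaptors, and 0, 2 and 2 of them had an unadjusted p under 0.05. Voom called 0 ligands, 0 receptors and 1 adaptor, TRAF1. With the correction limma called 0 ligands, 0 receptors and 1 adaptor, which was higher, where 0.412% of all genes were called. The values of unstimulated KD cells rest on the 2 libraries that stood apart.

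Protein-coding genes whose levels followed each member closely over the 8 libraries were sought among 10287 compared. The libraries share the 4 groups, so these correlations of log2(FPKM + 1) mainly rank likeness to a pattern of group means and are descriptions only. TNF was closest to PTX3 (Pearson's r = 0.998) and CCL2 (0.997), LTB to IRAK2 and OPTN (both 0.997), and TNFRSF9 to IRAK2 (0.999) and PIK3CD (0.997). TNFRSF12A was closest to EHBP1L1 (0.999) and CSNK1G2 (0.998), and NR2C2AP (0.996) and STX4 (0.996) were among the 2 closest to LTBR and CD40, respectively. TNFSF9 was closest to NOG (0.984) and LRRC20 (0.974), TNFRSF11B to TRIM44 (0.980) and ANKRD40 (0.978), and TNFRSF21 to AGAP1 (0.959).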

How the data were processed

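Total RNA of U2OS cells was sequenced for the authors by Novogene on an Illumina instrument, and FPKM values of 58735 genes were deposited in 4 tables of 2 libraries each. The submitters' processing notes name CASAVA 1.8, fastp, HISAT2 2.0.5, featureCounts 1.5.0-p3, DESeq2 1.20.0 and GRCh38. The strand setting of counting is not given in the sources used here, so that reads of overlapping antisense genes cannot be told apart. The methods of the study name edgeR for its own comparisons, which was not run on FPKM. Symbols and positions came from GENCODE release 29. Whole reads were recovered from the deposited FPKM (100% of values within 0.001 of a whole number), at 15601098 to 18677023 reads per library, which limits precision for genes near 0. A gene was kept (16528 were) if 2 or more libraries held 10 reads of it or more, after scaling to median depth, with 15 or more over all libraries. log2(FPKM + 1) was fitted with limma 3.58.1 (R 4.3.3, eBayes with a variance trend) as 1 mean per group over all 8 libraries, with 4 residual degrees of freedom. The contrasts were TNF-α in each line, KD under each condition, and their interaction, with Benjamini-Hochberg adjustment over all genes tested. The fit was tested on simulated counts that lacked the GC and composition shift of the unstimulated KD libraries, so that test does not cover this shift. Alternatives were a pseudocount of 0.1, no filter or a mean of at least 1 CPM, total-read and upper-quartile scaling, voom on recovered reads, splines of GC content and exon length (5 degrees of freedom, 99.95% of genes), a replicate block, no variance trend, the 4 compared libraries alone and each library left out. Omission of the 2 unstimulated KD libraries was chosen after the data were seen. Described were all 10 genes, WSB2, at most 3 called genes per other list and comparison with the largest change, and the 2 genes most correlated with each member, of which some are not reported here. LTA and the cell type markers were named outside that rule. The members and lists were chosen with earlier results of these data known.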

Additional observations from a re-analysis of the deposited data

Results flagged for a closer look

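For 4 genes the effect of WSB2 KD differed between stimulated and unstimulated cells by the interaction test. The difference on the log2 scale was 1.36 for TNFRSF12A, 0.73 for LTBR, 0.70 for TNFSF9 and 0.63 for CD40. All 4 values rest on the 2 unstimulated KD libraries with the higher mitochondrial share and the lower GC content, and TNFSF9 (0.21) and CD40 (0.38) were no longer called once GC content and length were corrected for.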

How the results depend on the processing

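With 2 libraries a group, small changes of single genes depended on the settings, while the number of called genes stayed within 1.5 times in every alternative but one. Leaving out 1 library at a time gave 3 to 6 called genes for unstimulated KD, 3 without the second unstimulated KD library, when CD40 (adjusted p = 0.0672, limma) and TNFRSF11B (adjusted p = 0.0502, limma) were lost. A fit that leaves a group with 1 library assumes that it varies like the others. Scaling to total reads moved the median of all genes to 0.13 for unstimulated KD, -0.19 for TNF-α in KD cells and -0.14 for the interaction. Without the 2 unstimulated KD libraries TNF-α in control cells gave 3 calls, TNFSF9 being lost (adjusted p = 0.0702, limma), and stimulated KD gave 0.

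Directions turned for small values. For TNF-α in control cells TNFRSF21 gave -0.0103 (total reads) and -0.0027 (upper quartile), and LTBR -0.0403, -0.0334 and, GC and length corrected, -0.0498. For TNF-α in KD cells TNFSF9 gave -0.12 (total reads) and -0.26 (corrected), TNFRSF21 -0.14 and -0.0532, and TNFRSF11B 0.17 (corrected). For unstimulated KD LTB gave 0.39 (corrected) and TNFRSF9 0.0319 (total reads). For stimulated KD TNFRSF9 gave -0.0078 (total reads) and -0.013 (upper quartile). For the interaction LTB gave -0.0501 (total reads), -0.0054 (upper quartile) and -0.62 (corrected), TNFRSF9 -0.0397 (total reads), and TNFRSF21 -0.13 (total reads) and -0.11 (corrected). The cause was not tested.

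Leave-one-out values that changed sign ranged, for TNF-α in control cells, from -0.0596 to 0.60 (TNFRSF11B), -0.13 to 0.25 (TNFRSF21) and -0.0630 to 0.13 (LTBR). For unstimulated KD they ranged from -0.0374 to 0.19 (TNF), -0.33 to 0.00934 (TNFRSF9) and -0.0899 to 0.29 (TNFRSF21), for stimulated KD from -0.0644 to 0.0879 (TNFRSF9), and for the interaction from -0.22 to 0.00781 (TNF), -0.14 to 0.17 (LTB) and -0.0398 to 0.34 (TNFRSF21).

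Deviations of same-numbered libraries from their group means correlated between groups by -0.19 to 0.35. The value of 0.35 was that of unstimulated control and unstimulated KD cells. With 2 libraries a group, these values cannot settle whether the numbers pair the libraries. With a replicate block 3, 6, 5, 0 and 4 genes were called for TNF-α in control cells, TNF-α in KD cells, unstimulated KD, stimulated KD and the interaction, against 4, 7, 5, 0 and 4 without it.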
